A study of Rattus norvegicus with 9 samples.

Results

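The transcripts of Eif4b, Magoh and Mex3c, which encode proteins that bind RNA or start its translation, were followed on an m6A epitranscriptomic microarray of rat cortex. They were chosen by gene name from the 50 transcript probes that were printed as 10 spots each, of which 30 had an accession that matched a rat gene symbol, and they stand for 3 of the 41186 transcript probes of the array. The accessions were NM_001008324 for Eif4b, NM_001100536 for Magoh and NM_001107377 for Mex3c. The rats were male Sprague Dawley animals, 8 weeks old when bought, and 3 were measured in each of 3 groups with 1 array per rat. In the control group the neck arteries were operated on but the middle cerebral artery was not blocked. In the model group this artery was blocked with a thread for 2 h and then reperfused, which gives a cerebral ischemia-reperfusion injury, and the cortex of the injured side was taken on day 7. The BHD group had the same injury and was given Buyang Huanwu Decoction (BHD), a traditional Chinese herbal formula, until day 7, at a dose that is not given in the sources used here. The samples were pieces of whole cortex, in which fewer cells of a type and less RNA per cell cannot be told apart.

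N6-methyladenosine (m6A) is a common internal modification of mRNA that is written by a methyltransferase complex, removed by demethylases and bound by reader proteins, and it bears on the splicing, stability and translation of the transcripts that carry it. Eif4b encodes a translation initiation factor that stimulates the RNA helicase which unwinds the leader of an mRNA, and it is a target of the kinases downstream of mTOR. Magoh encodes a core subunit of the exon junction complex, which is left on mRNA at spliced junctions and takes part in export, localization and nonsense-mediated decay, and which is known for its role in the development of the cortex. Mex3c encodes an RNA-binding ubiquitin ligase of the MEX3 family that binds target mRNAs through KH domains and promotes their decay.

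On each array the RNA precipitated with an anti-m6A antibody (IP) was labelled with Cy5 and the RNA left in the supernatant (Sup) of the same rat with Cy3. The relative m6A level was taken as log2(IP/Sup) after normalization within the array, and the IP and Sup signals are log2 values that were also normalized between arrays. Since the dyes were not swapped, part of a ratio may be the dye, and levels of different probes were not set against each other. A positive ratio therefore does not by itself show a higher methylation than a negative one. Between 71% and 82.8% of the transcript spots of an array exceeded the background well in the IP channel and between 58.5% and 72.9% in the Sup channel, and no spot was saturated. A probe was called changed where its fold change reached 1.5 and its unadjusted p in limma was under 0.05, the thresholds of the study, and Benjamini-Hochberg adjusted values over all tested probes are given beside them. With 3 rats against 3, the smallest p that an exact two-sided permutation test can give is 0.1.

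Eif4b and Magoh were measured well above background on every one of their 90 spots (10 spots on 9 arrays) in both channels. Mex3c was dimmer. All of its 90 spots were above background in the IP channel but 78 of 90 in the Sup channel, and most of the missing ones were on control arrays, with 5, 5 and 9 of 10 spots above background there. The mean IP intensity over the spots of an array was 218.7 to 419.7 for Eif4b, 378.65 to 620.2 for Magoh and 54.2 to 85.3 for Mex3c before any correction. The local background in the IP channel was between 14.45 and 17.9 for the 3 genes. The scanner software marked 3, 6 and 3 of the 90 spots as outliers for Eif4b, Magoh and Mex3c, and these were left out.

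The log2(IP/Sup) of Eif4b was 0.32, 0.27 and 0.41 in the 3 control rats, 0.45, 0.43 and 0.52 in the model rats and 0.40, 0.29 and 0.58 in the BHD rats. All model rats were above all control rats, while the BHD rats spanned almost the whole range of the other groups. The mean was lowest in the control group (0.33 ± 0.07, SD, n = 3), followed by the BHD group (0.43 ± 0.14) and the model group (0.47 ± 0.04). The difference between model and control was 0.13 (SE 0.08, 95% interval −0.06 to 0.33) with an adjusted p of 0.766 in limma, and an exact permutation p of 0.1, the smallest possible. It became −0.28 without normalization within arrays and −0.08 on processed signals shifted as in the deposited table, settings that moved the median of all probes to −0.56 and −0.28. The difference between BHD and model was −0.04 (95% interval −0.24 to 0.16, limma adjusted p = 0.879), and between BHD and control it was 0.09 (−0.11 to 0.29, limma adjusted p = 0.904) and 0.01 without BHD rat 3. No pair of neighbouring groups in this order differed in the adjusted test.

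The log2(IP/Sup) of Magoh was −1.03, −0.77 and −0.72 in the control rats, −0.80, −0.61 and −0.71 in the model rats and −1.06, −1.22 and −0.97 in the BHD rats. The BHD rats were all below the model rats and did not overlap with them, whereas control rat 1 lay among the BHD rats. The group means were −0.71 ± 0.10 (SD, n = 3) in the model group, −0.84 ± 0.17 in the control group and −1.08 ± 0.12 in the BHD group. Between BHD and model the ratio differed by −0.38 (SE 0.11, 95% interval −0.62 to −0.13), which is a linear ratio of 0.770. The unadjusted p of this difference was 0.00696 and the adjusted p was 0.433 in limma, with an exact permutation p of 0.1. It did not pass the 1.5-fold threshold, and 11.6% of all tested probes differed by more in this comparison. The difference was −0.43 to −0.31 when each rat was left out in turn, and adjusted p ranged from 0.0762 to 0.993 over the 22 alternatives. Between model and control the ratio differed by 0.13 (SE 0.11, −0.14 to 0.40, limma adjusted p = 0.778). It was 0.04 without control rat 1, 0.08 without model rat 2 and 0.13 to 0.19 without any other rat, and −0.32 without normalization within arrays and −0.17 with the shifts of the deposited table. The last 2 settings moved the median of all probes to −0.56 and −0.28, and relative to it Magoh was at 0.24 and 0.11. Between BHD and control the ratio differed by −0.24 (SE 0.11, −0.49 to −0.00, limma adjusted p = 0.853), and by −0.44 with slide as a block and −0.56 with the shifts of the deposited table. These shifts moved the median of all probes to −0.32 there, and relative to it Magoh was at −0.24. Slide stands throughout for arrays with the same recorded scan time.

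The log2(IP/Sup) of Mex3c was 0.38, 0.29 and 0.28 in the control rats, 0.31, 0.08 and 0.20 in the model rats and 0.34, 0.34 and 0.24 in the BHD rats. Model rat 2 had the lowest value of all, and the groups overlapped in each comparison. The mean was 0.32 ± 0.06 (SD, n = 3) in the control group, 0.30 ± 0.06 in the BHD group and 0.19 ± 0.11 in the model group. The model differed from the control by −0.12 (SE 0.09, 95% interval −0.34 to 0.09, limma adjusted p = 0.766). The BHD group differed from the model group by 0.11 (SE 0.08, −0.07 to 0.29, limma adjusted p = 0.616) and from the control by −0.01 (−0.20 to 0.17, limma adjusted p = 0.986). Without model rat 2 the first 2 differences were −0.07 and 0.05. The upper and lower limits of all 3 intervals were within 1.5-fold for the reported processing, but not under every other setting. On the processed signals of the scanner software the model differed from the control by −0.26 (SE 0.20). With the shifts of the deposited table added it was −0.57 (SE 0.30). These shifts moved the median of all probes to −0.28, and relative to it Mex3c was at −0.28. A 1.5-fold difference of Mex3c is therefore not excluded. Where only spots above background in both channels were used, the difference between BHD and control was 0.00 and the others kept their sign.

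**Figure D1:**
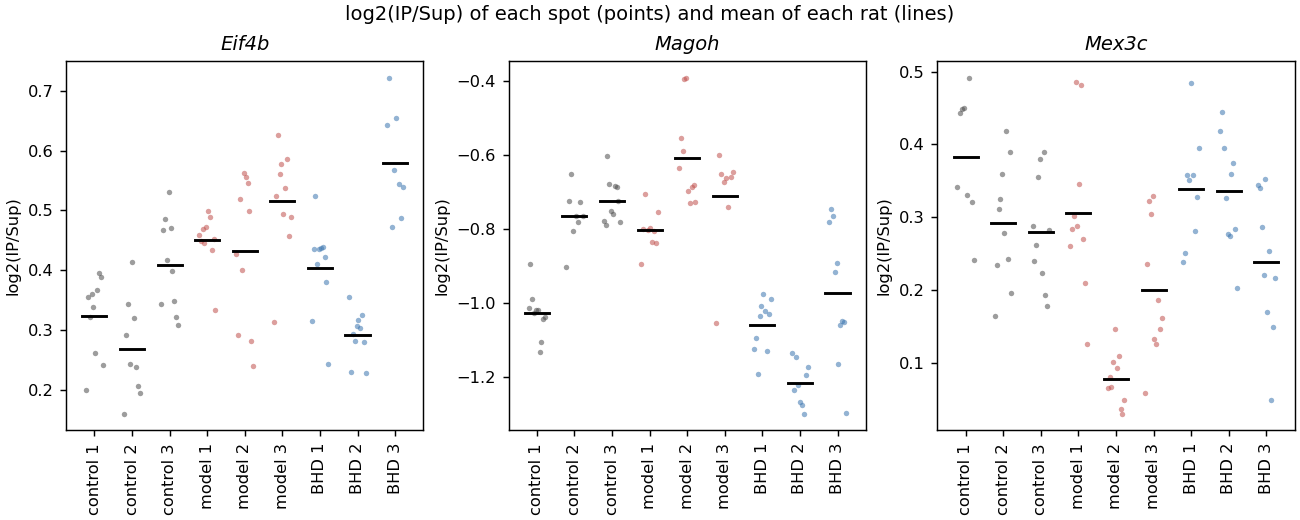
log2(IP/Sup) of Eif4b, Magoh and Mex3c (y axes, each with its own range, no unit) for the 3 control, 3 model and 3 BHD rats (x axes), with a point for each spot that was not marked as an outlier and a line for the mean of each rat. For Magoh the 3 BHD lines, at −1.22 to −0.97, lie below the 3 model lines, at −0.80 to −0.61, while spots of BHD rat 3 reach the model range.

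The spots show the precision within an array. The SD of log2(IP/Sup) over the spots of an array had a median of 0.08 for Eif4b, 0.07 for Magoh and 0.08 for Mex3c. The standard error of a rat's mean from its spots was then 0.02, 0.02 and 0.03 (medians over the 9 arrays). The SD between the arrays of a group (1 per rat), pooled over the groups, was 0.10 for Eif4b, 0.13 for Magoh and 0.08 for Mex3c. Arrays of a group thus differed by several times the error of the spots on 1 array. With 1 array per rat, differences between rats cannot be told apart from those of precipitation, labelling, hybridization or scan. The spots are not replicates of a condition. The spots of BHD rat 3 for Magoh were the most scattered, with a SD of 0.18 and single values from −1.30 to −0.74.

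The 2 signals behind each ratio were then compared. The IP signal of Eif4b was 7.75, 7.80 and 8.15 in the control rats, 8.22, 8.30 and 8.19 in the model rats and 8.10, 8.11 and 8.68 in the BHD rats. All model rats were above all control rats, and BHD rat 3 was the highest. The model differed from the control by 0.34 (SE 0.12, 95% interval 0.04 to 0.63), with an unadjusted p of 0.0308 and an adjusted p of 0.763 in limma, and an exact permutation p of 0.1. Between BHD and control the IP signal differed by 0.39 (SE 0.17, −0.00 to 0.79, limma adjusted p = 0.343) and by 0.20 without BHD rat 3. BHD differed from the model by 0.06 (−0.34 to 0.45, limma adjusted p = 0.891), a value that was −0.13 without BHD rat 3 and also turned negative under median centring and without normalization between arrays. In the last setting the median of all probes was at −0.25.

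The Sup signal of Eif4b was 7.42, 7.53 and 7.75 in the control rats, 7.77, 7.86 and 7.68 in the model rats and 7.69, 7.82 and 8.10 in the BHD rats. The control mean of 7.57 ± 0.16 (SD, n = 3) was the lowest, and the groups overlapped. The model differed from the control by 0.20 (−0.05 to 0.46, limma adjusted p = 0.748), and by 0.13 without control rat 1. BHD differed from the control by 0.30 (SE 0.13, 0.01 to 0.59), with an unadjusted p of 0.0426 and an adjusted p of 0.285 in limma, and by 0.19 without BHD rat 3 and 0.18 with slide as a block. Between BHD and model the Sup signal differed by 0.10 (−0.19 to 0.39, limma adjusted p = 0.858), and by −0.07 without normalization within arrays and −0.02 without normalization between arrays. In the model group both signals of Eif4b were thus above the control mean, the IP signal by more than the Sup signal, and none of these differences passed the adjusted test.

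The IP signal of Magoh was 8.67, 8.90 and 8.64 in the control rats, 8.68, 8.89 and 9.05 in the model rats and 8.60, 8.60 and 8.88 in the BHD rats. The Sup signal was 9.70, 9.67 and 9.36 in the control rats, 9.48, 9.50 and 9.76 in the model rats and 9.66, 9.82 and 9.85 in the BHD rats. The groups overlapped in both signals. Between BHD and model the IP signal differed by −0.18 (SE 0.13, 95% interval −0.47 to 0.11, limma adjusted p = 0.499) and the Sup signal by 0.20 (SE 0.12, −0.08 to 0.47, limma adjusted p = 0.695). The difference in the ratio was thus made up of a lower mean IP signal and a higher mean Sup signal, but their shares depended on single rats and settings. The IP and Sup parts were −0.09 and 0.29 without model rat 3, −0.27 and 0.15 without model rat 1, and −0.37 and 0.11 on slide 2. They were −0.08 and 0.28 with outlier spots kept, and both were 0.01 without normalization within arrays. In the latter setting the medians of all probes were at 0.24 (IP) and −0.27 (Sup). Between model and control the IP signal differed by 0.13 (limma adjusted p = 0.895) and by −0.09 without normalization within arrays, where the median of all probes was at −0.29. The Sup signal of the model differed from the control by 0.00 (−0.31 to 0.31, limma adjusted p = 0.998). BHD differed from the control by −0.04 in the IP signal and by 0.20 in the Sup signal (limma adjusted p of 0.894 and 0.447).

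The IP signal of Mex3c was 6.78, 6.76 and 6.60 in the control rats, 6.65, 6.59 and 6.67 in the model rats and 6.74, 6.68 and 6.90 in the BHD rats. Every BHD rat was above every model rat, the nearest pair by 0.02. BHD differed from the model by 0.14 (SE 0.08, 95% interval −0.05 to 0.32, limma adjusted p = 0.421), with an exact permutation p of 0.1. The value was 0.07 without BHD rat 3, and −0.13 without normalization between arrays, where the median of all probes was at −0.25. The model differed from the control by −0.07 (limma adjusted p = 0.903), and by 0.13 without normalization between arrays, where the median of all probes was at 0.14. The Sup signal of Mex3c was 6.39, 6.47 and 6.32 in the control rats, 6.35, 6.52 and 6.47 in the model rats and 6.40, 6.35 and 6.66 in the BHD rats, and the groups overlapped. Its differences were 0.05 for model against control, 0.03 for BHD against model and 0.08 for BHD against control (limma adjusted p of 0.919, 0.958 and 0.747).

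**Figure D2:**
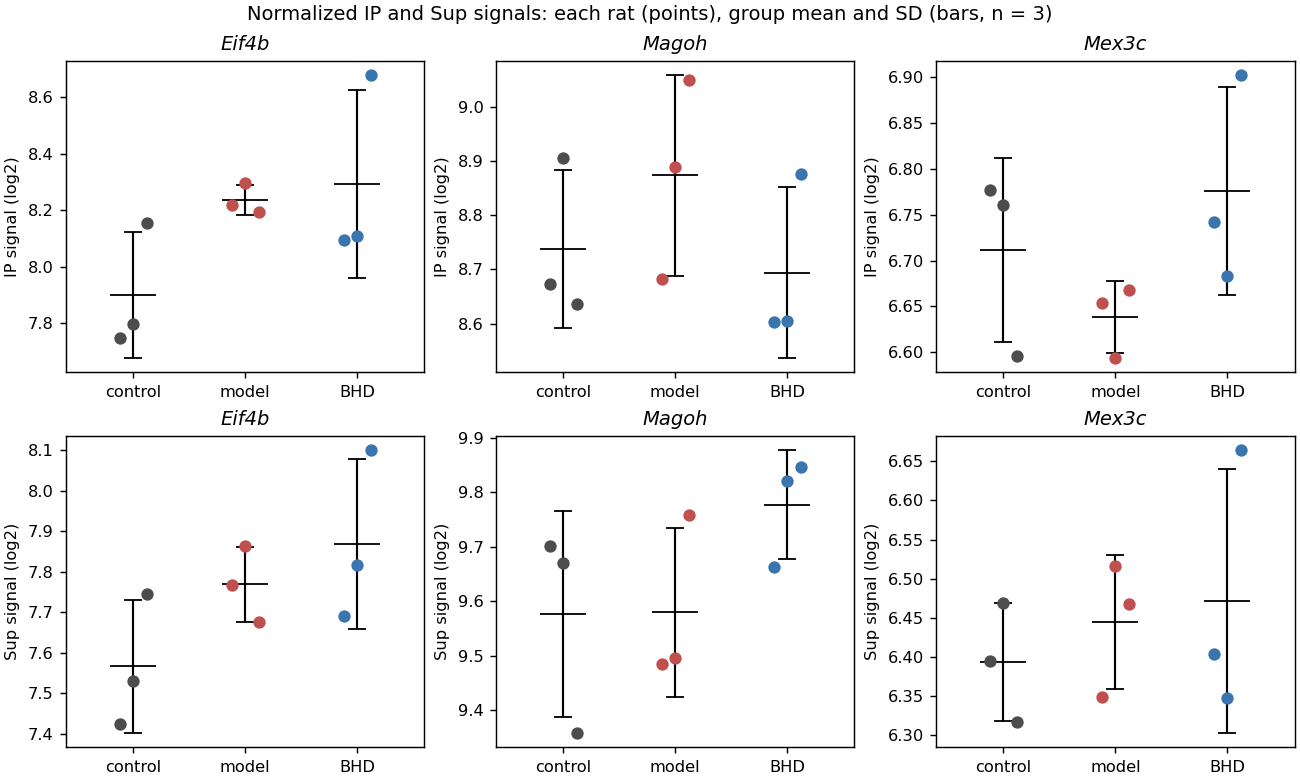
Normalized IP signal (upper row) and Sup signal (lower row) of Eif4b, Magoh and Mex3c on the log2 scale (y axes, each with its own range), with a point for each rat and bars for the mean and SD of each group (n = 3). Model and control rats do not overlap in the IP signal of Eif4b, and BHD rat 3 has the highest IP and Sup signal of Eif4b (8.68 and 8.10) and of Mex3c (6.90 and 6.66).

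The members were then read against all probes that were tested. In log2(IP/Sup) between model and control, 0 of the 3 genes were called, and limma called 0.619% of the 31640 tested probes (196). Model and control rats did not overlap for 1 of the 3 genes, Eif4b, and for 8.3% of the probes with a value on each of these arrays. A block for the replicate number raised the calls in this comparison to 807, again with 0 of the 3 genes. In log2(IP/Sup) between BHD and model, 0 of the 3 genes and 2.58% of the 32908 tested probes were called, and the groups did not overlap for 1 gene, Magoh, and for 16.6% of the probes. Between BHD and control 0 of the 3 genes and 0.966% of the probes were called, and the groups overlapped for all 3 genes, with 11.7% of the probes not overlapping. Taking same-numbered control and model rats as possible pairs, model minus control was 0.13, 0.16 and 0.11 for Eif4b, 0.22, 0.16 and 0.01 for Magoh and −0.08, −0.21 and −0.08 for Mex3c. The sign was the same in all 3 pairs for each of the 3 genes, as for 35.3% of the probes. For BHD minus control it was the same for Eif4b (0.08, 0.02 and 0.17) and Magoh (−0.03, −0.45 and −0.25) but not for Mex3c (−0.04, 0.04 and −0.04), beside 31.3% of the probes. The median difference of the 3 genes was 0.13, −0.04 and −0.01 in these comparisons, beside 0.01, 0.00 and −0.00 over all tested probes. The normalization within arrays holds the values over all probes near 0. Such a ratio cannot show a shift shared by all transcripts, like the higher total m6A that the study reported in model cortex. The comparisons share their model or control rats and are not independent of each other.

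In the IP signal 0 of the 3 genes were called in any comparison, beside 1.4% of the probes for model against control, 5.15% for BHD against model and 4.39% for BHD against control. Groups did not overlap for 1 gene (Eif4b) and 11.3% of the probes between model and control, for 1 gene (Mex3c) and 25.3% of the probes between BHD and model, and for 0 genes and 20.9% of the probes between BHD and control. In the Sup signal 0 of the 3 genes were called, beside 1.23%, 2.94% and 6.48% of the probes in the same order. No gene had groups apart from each other in the Sup signal, while 12.9%, 14.7% and 23.6% of the probes did. At an unadjusted p under 0.05 alone, 2 of the 3 genes are counted in at least 1 comparison. They were Eif4b in the IP signal (model against control) and the Sup signal (BHD against control), and Magoh for the ratio of BHD against model and of BHD against control. Such a p was found for 1991 of 31640 probes in the IP signal of model against control and for 5502 of 32908 in the Sup signal of BHD against control. In log2(IP/Sup) 1205, 3551 and 1850 probes had it in the 3 comparisons, and 0 had an adjusted p under 0.05 in any of them (limma, Benjamini-Hochberg). The share of all probes with an unadjusted p under 0.05 in at least 1 of these tests was not computed. The 2 of 3 genes can therefore not be read as more or fewer than among all probes.

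**Figure D3:**
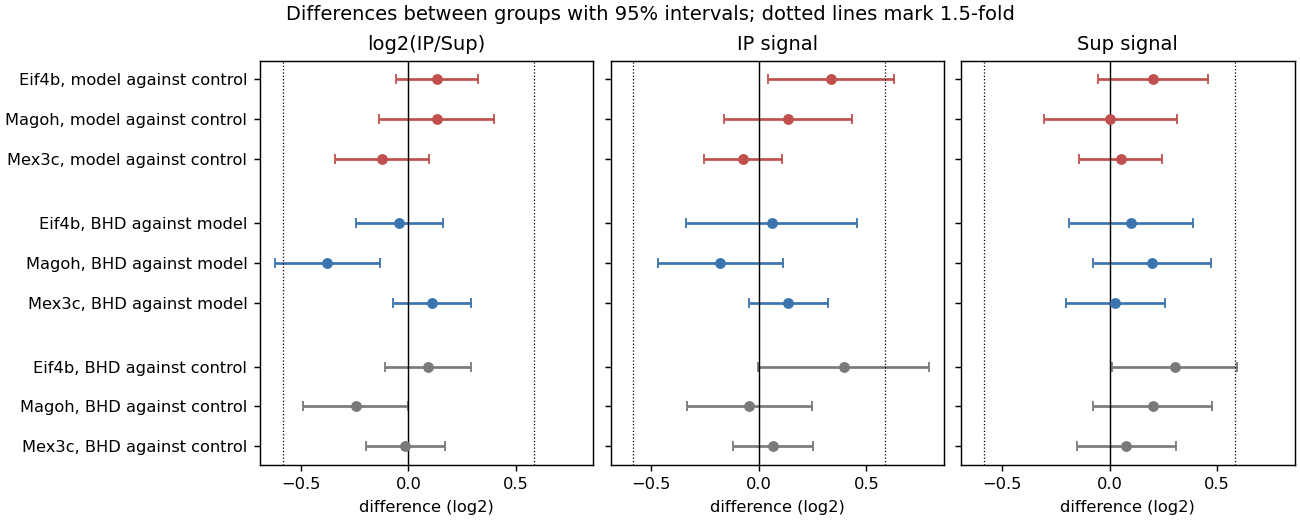
Differences between groups on the log2 scale (x axes) for log2(IP/Sup), the IP signal and the Sup signal of Eif4b, Magoh and Mex3c in the 3 comparisons (y axis), as points with 95% intervals from limma and with dotted lines at a 1.5-fold change. No point lies beyond a dotted line, and the interval of Magoh for BHD against model in log2(IP/Sup), −0.62 to −0.13, lies wholly below 0.

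The arrays fell into 3 sets by their recorded scan time. These sets are called slides here, although no label names a slide. Slide 1 held the 3 control arrays and model rat 1, slide 2 held model rats 2 and 3 with BHD rats 1 and 2, and slide 3 held BHD rat 3 alone. On slide 2, with 2 rats against 2, BHD differed from the model in log2(IP/Sup) by −0.48 for Magoh, −0.13 for Eif4b and 0.20 for Mex3c. The difference of Magoh was thus larger on slide 2 than over all rats, and its limma adjusted p there was 0.0762. On slide 1 the difference between model rat 1 and the control mean was 0.12 for Eif4b, 0.04 for Magoh and −0.01 for Mex3c, and model rats 2 and 3, which were on another slide, differed from the control mean by 0.14, 0.18 and −0.18. For Eif4b the value was about the same within and across slides, whereas for Magoh and Mex3c it was nearer to 0 in the model rat that shared the slide of the controls. A fit with slide as a block gave the slide 1 values for model against control and the slide 2 values for BHD against model, where Magoh had a limma adjusted p of 0.190. BHD and control rats shared no slide, and their groups are linked only through the model rats on slides 1 and 2. With slide as a block, BHD differed from control by −0.0095 for Eif4b, −0.44 for Magoh and 0.19 for Mex3c in log2(IP/Sup) (limma adjusted p of 0.987, 0.598 and 0.695).

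Genes of the same pathways were looked for by accession in the gene symbols that could be matched. Of 42 listed genes of translation initiation, the exon junction complex, the MEX3 family with related RNA-binding ubiquitin ligases, and the m6A writers, erasers and readers, 0 were among the 30 named 10-spot probes. The other transcript probes could not be searched by gene, so whether the array measures these partners is not known here, and the 3 genes are described without them. Of the cell type markers, 2 of 8 for neurons were matched, Map2, a dendritic microtubule protein, and Dlg4, a postsynaptic scaffold, and none for astrocytes, microglia, oligodendrocytes, endothelial cells or leukocytes. Both were well above background on all 90 spots in both channels. The mean IP signal of Map2 was 11.96 in control rats, 11.55 in model rats and 11.11 in BHD rats. Map2 was called lower in the IP signal between BHD and control, by −0.85 (SE 0.19, limma adjusted p = 0.240). In this test 4.39% of all tested probes were called in either direction. Dlg4 had mean IP signals of 9.18, 8.90 and 8.79 in the same order. It was not called there, at −0.39 (SE 0.26, limma adjusted p = 0.506). In the Sup signal neither was called between BHD and control, at −0.45 for Map2 and −0.36 for Dlg4. With 2 of 8 markers the list is too short to stand for neurons. In log2(IP/Sup) Map2 differed by −0.14 between model and control and by −0.26 between BHD and model (limma adjusted p of 0.830 and 0.525), and Dlg4 by 0.08 and −0.11 (0.863 and 0.685). The part of the makeup of the tissue in the values of Eif4b, Magoh and Mex3c was not tested.

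Among the 27 other named probes with 10 spots, 1 of 23 tested was called in log2(IP/Sup) between model and control. It was Ppp2r2b, a regulatory subunit of a protein phosphatase, at −0.92. The others reached up to 0.39 for Ldha, a subunit of lactate dehydrogenase. Between BHD and model 0 of 25 were called, with values from −0.47 (Ldha) to 0.61 (Ppp2r2b). The differences of Eif4b, Magoh and Mex3c lay inside these ranges in both comparisons.

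The pattern of each gene over the 9 rats was compared with that of 25 of these probes by the root mean square difference of log2(IP/Sup), after each probe was centred on its own mean. The arrays, their normalization and their slides are shared by all probes, so the likeness is a description. The nearest probes were also picked over these same 9 rats. Group differences close to those of the gene follow from that choice and are no separate finding. For Magoh the nearest were Pop7, which encodes a protein subunit of RNase P and RNase MRP (0.054), and Ndfip1, which encodes an adaptor of NEDD4 ubiquitin ligases (0.059). Both distances were below the SD of Magoh itself over the 9 rats (0.201). Between BHD and model these probes differed by −0.38 (SE 0.12) and −0.36 (SE 0.10), close to the −0.38 of Magoh, and each had a limma adjusted p of 0.433. For Mex3c the nearest were Enpp1, an ectonucleotidase (0.066), and Napepld, a phospholipase (0.075), beside an SD of 0.091 for Mex3c. These differed by 0.23 and 0.18 between BHD and model (limma adjusted p of 0.433 and 0.454) and by −0.15 and −0.18 between model and control (0.766 each). For Eif4b the nearest were Cyp2e1 (0.082) and Nlrp3 (0.088), which were dim, with 28 and 17 of 90 spots above background in the Sup channel, and whose distances were not far below the SD of Eif4b (0.102). Among the 3 genes themselves the distances were 0.158 between Eif4b and Mex3c, 0.185 between Eif4b and Magoh and 0.259 between Magoh and Mex3c. Each was larger than the distance of either gene to its nearest named probe, which is the smallest of 25.

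**Figure D4:**
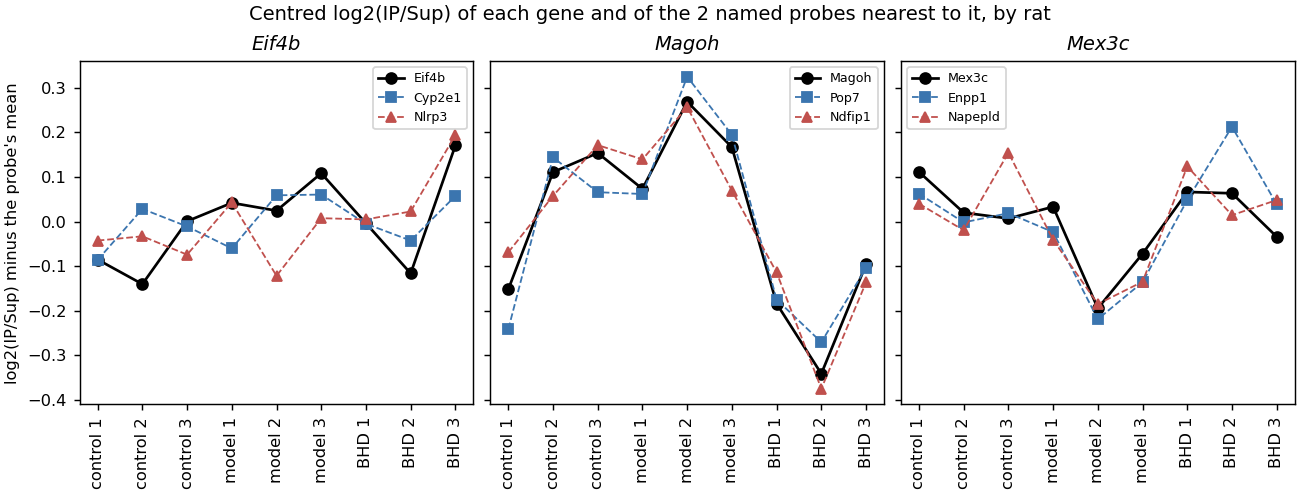
log2(IP/Sup) of Eif4b, Magoh and Mex3c and of the 2 named probes nearest to each (symbols in the legends), centred on the mean of each probe (y axes), for the 9 rats (x axes), where lines only guide the eye. Magoh, Pop7 and Ndfip1 are lowest in BHD rat 2 and highest in model rat 2, and Mex3c, Enpp1 and Napepld are all lowest in model rat 2.

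The differences in log2(IP/Sup) were recomputed under other processing, and none of the 3 genes was called under any setting in any comparison. For Magoh between BHD and model the difference was negative in all 22 alternatives and between −0.52 and −0.00. The value near 0 came from leaving out the normalization within arrays, which put the median of all probes at 0.51, and relative to this median Magoh was at −0.52. Its unadjusted p was under 0.05 in 19 of the 22. The 22 are not separate checks, since some repeat the reported difference and those without 1 rat share most rats. For Mex3c the difference between BHD and model was positive in all alternatives run, from 0.05 to 0.67, and the one between model and control was negative in all, from −0.73 to −0.01. The 0.67 and −0.73 came without normalization within arrays. Relative to the medians of all probes there, 0.51 and −0.56, Mex3c was at 0.15 and −0.17. For Eif4b the difference between model and control was positive except without normalization within arrays and with the shifts of the deposited table. Relative to the median of all probes it was 0.28 and 0.20 in those.

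**Figure D5:**
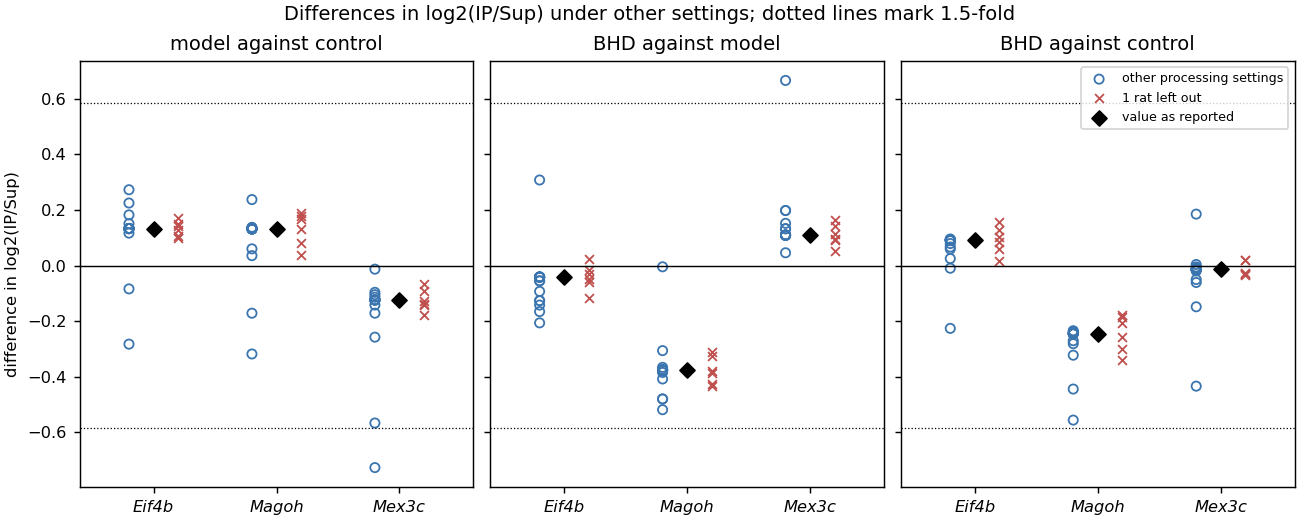
Differences in log2(IP/Sup) (y axes) of Eif4b, Magoh and Mex3c (x axes) in the 3 comparisons, with diamonds for the value as reported, circles for other processing settings, crosses for fits that leave out 1 rat and dotted lines at a 1.5-fold change. For BHD against model every mark of Magoh is below 0 and every mark of Mex3c above it, and the circle of Mex3c beyond the dotted line (0.67) is the setting without normalization within arrays. In that setting the median of all probes was at 0.51. Circles of settings that change only the filter, the test, the replicate block or the inclusion of the third group repeat the diamond.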

How the data were processed

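Total RNA of the ischemic-side cortex of 9 rats was split with an anti-m6A antibody and hybridized to 2-colour arrays. Scanner files from Agilent Feature Extraction 11.0.1.1, as the authors deposited them, hold median spot and local background intensity values without normalization, a processed intensity corrected by that software, and flags. A second deposited file gives log2 signals for 32860 probes, each the log2 processed intensity less a constant per array and channel (to within 4.93e-09), and has 0 of the 10-spot probes. Median intensities were corrected by normexp (offset 50), outlier and control spots were dropped, loess (span 0.3) was applied to each array and Aquantile to the signals, and the spots of a probe were averaged. Probes were tested with limma 3.58.1 in R 4.3.3 with the package data.table (1.17.8) if well above background (50% of spots, either channel) on at least 3 arrays of the fit, with values on at least 2 arrays per group. The comparison of model with control used their 6 arrays, the BHD comparisons all 9. Python 3.11.15, pandas 2.3.3 and matplotlib 3.10.9 made the tables and figures.

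The members and the gene lists were chosen with earlier results of these data known. Named were the 3 genes, genes of their pathways where a probe matched, and the 2 nearest named probes of each. Other genes, Map2, Dlg4, Ppp2r2b and Ldha, were named after their values were seen, the first 2 as the only listed markers matched. Symbols came from the RefSeq table of assembly GRCr8, used for names only, since the array names another build. Same-numbered control and model arrays deviated together in log2(IP/Sup) (r of 0.430, 0.137 and 0.322, each over 0.1), so the number was treated as a possible pair, although neither the labels nor the methods say what it shares. For model and BHD the values were 0.596, 0.036 and 0.251. The fit was tested on simulated data. The number of arrays limits the precision. Alternatives covered background, normalization, spots, filter, test, blocks, slide 2 alone and each rat left out. The processed signals with the shifts of the table and the stricter spot filter were added after the data were seen.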

Additional observations from a re-analysis of the deposited data

How the results depend on the processing

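Of 594 values of the 3 genes under other settings, 546 kept their direction and 48 turned it. Part of the 546 was fixed in advance. Settings that change only the probe filter, the test, the replicate block or the inclusion of the third group repeat the reported difference. Neither its direction nor a call at 1.5-fold could change in those. Kept values could still move far, as the 0.67 and −0.73 of Mex3c in log2(IP/Sup) without normalization within arrays (BHD against model, model against control). The median of all probes was then at 0.51 and −0.56, and relative to it Mex3c was at 0.15 and −0.17. No gene was called under any setting. The cause was not tested where a value turned. The deposited table could not be used for the genes, since it holds none of their probes. With slide 2 alone, log2(IP/Sup) between BHD and model was 0.20 for Mex3c, and the IP signal −0.37 for Magoh and −0.14 for Eif4b, with Sup signals of −0.016 for Eif4b and −0.12 for Mex3c.

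Without normalization within arrays, log2(IP/Sup) of model against control was −0.28 for Eif4b and −0.32 for Magoh, and of BHD against model 0.31 for Eif4b. The IP signal of Magoh was −0.090 and 0.0069 in these comparisons, and the Sup signal of BHD against model was −0.075 for Eif4b and −0.25 for Mex3c. The median of all probes was then at −0.56 and 0.51 in log2(IP/Sup), −0.29 and 0.24 in the IP signal and −0.27 in that Sup signal. With the shifts of the deposited table, log2(IP/Sup) of model against control was −0.084 for Eif4b and −0.17 for Magoh, and of BHD against control −0.23 for Eif4b. The IP signal of Eif4b for BHD against model was then −0.12. Without normalization between arrays, the IP signal of Mex3c was 0.13 for model against control and −0.13 for BHD against model, where Eif4b was at −0.060. The Sup signal was then −0.011 for Magoh in model against control, and −0.019 for Eif4b and −0.24 for Mex3c in BHD against model. Median centring gave −0.024 for the IP signal of Eif4b in BHD against model and −0.050 for the Sup signal of Magoh in model against control.

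With slide as a block, log2(IP/Sup) of BHD against control was −0.0095 for Eif4b, 0.19 for Mex3c and −0.44 for Magoh, which was at −0.24 without the block. The IP signal was −0.057 for Magoh in model against control and −0.14 for Eif4b in BHD against model. The Sup signal of model against control was −0.092 for Magoh and −0.044 for Mex3c, of BHD against model −0.016 for Eif4b and −0.12 for Mex3c, and of BHD against control −0.16 for Mex3c. Outlier spots kept gave 0.077 for the IP signal of Magoh in BHD against control. The Sup signal of model against control was −0.010 for Mex3c without background correction and −0.0071 for Magoh with the median over spots. Spots above background in both channels gave 0.0039 for log2(IP/Sup) of Mex3c in BHD against control.

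Leaving out each rat in turn, log2(IP/Sup) of Eif4b in BHD against model ranged from −0.12 to 0.025 and of Mex3c in BHD against control from −0.034 to 0.019. The IP signal ranged from −0.13 to 0.16 for Eif4b in BHD against model and from −0.13 to 0.039 for Magoh in BHD against control. The Sup signal ranged from −0.11 to 0.065 for Magoh in model against control, from −0.015 to 0.19 for Eif4b and −0.069 to 0.090 for Mex3c in BHD against model, and from −0.018 to 0.14 for Mex3c in BHD against control.

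With the replicate number as a block, no value of the 3 genes changed size, and log2(IP/Sup) of Magoh in BHD against model was −0.38 (limma adjusted p = 0.105, beside 0.0762 to 0.993 over all alternatives). The block changed no call of a gene. Counts over all probes depended more on the settings. In log2(IP/Sup) of model against control they ran from 0 (Benjamini-Hochberg) to 4325 (deposited shifts), beside 196, with 807 under the block. For BHD against model they ran from 0 to 3437 beside 848, and for BHD against control from 0 to 3259 beside 318. In the IP signal the ranges were 0 to 1993 beside 442, 1 to 4370 beside 1694 and 2 to 4519 beside 1444. In the Sup signal they were 0 to 3602 beside 390, 2 to 3236 beside 966 and 0 to 5352 beside 2132. Of the 196, 73 were higher and 123 lower. The 4325 split into 117 and 4208, where the median of all probes was at −0.28.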
